A study of Mus musculus with 20 samples.

Results

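The transcripts of 10 astrocyte genes were followed in 2 brain regions of vehicle-treated mice and of mice with streptozotocin-induced painful diabetic neuropathy. The genes were taken by name, and all 10 had an identifier among the 57180 gene identifiers of the count table. They comprise 6 identity genes (Aqp4, Slc1a2, Slc1a3, Gja1, Aldh1l1 and S100b), 2 intermediate filament genes (Gfap and Vim) and 2 genes of secreted proteins linked to reactivity (Serpina3n and Lcn2). Control mice received vehicle, and the diabetic mice were given streptozotocin (STZ), which destroys pancreatic beta cells, once at 200 mg/kg into the peritoneum. Tissue punches were taken at week 7 from the paraventricular thalamic nucleus (PVT), a midline thalamic nucleus, and from the posterior insular cortex (pIC). Each region had 4 libraries from control and 6 from STZ mice, which makes 20, all prepared from poly(A)-selected RNA. The sources used here do not give strain, sex or age. The labels do not state that libraries of a group came from separate mice, so p-values cover the spread between these libraries. They also do not state that a PVT and a pIC library with the same number came from 1 mouse.

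Astrocytes take up glutamate released at synapses, buffer potassium, move water at their endfeet on blood vessels and are joined into networks by gap junctions. After injury or inflammation they can become reactive, a state in which intermediate filaments and secreted proteins such as Serpina3n and lipocalin-2 are often raised. Cytokine signalling through STAT3, C/EBP factors and NF-kB is known to drive many of these genes, and glucocorticoid hormones act on several of them. Not all members are restricted to astrocytes. Gfap, Vim, Aqp4 and S100b are also expressed by cells of the ventricle wall, S100b by oligodendrocytes, Vim by vessels and Lcn2 by endothelium and neutrophils.

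The promoters of 3 genes are shown because the STZ results turn on Serpina3n and Lcn2 and the regional results on Gfap. The sequences are those of RefSeq on GRCm38.p6 for 9 of the 10 genes, and Aqp4 was left out of the search. Each runs from 250 bases before to 50 bases after the annotated start, read along the gene. Capitals mark matches to 1 of 3 motifs searched on both strands: TTCNNNGAA for STAT factors, TTGCNNAA for C/EBP factors and the palindromic glucocorticoid response element for the glucocorticoid receptor. The Serpina3n promoter lies at chr12:104406458-104406757 on the plus strand, that of Lcn2 at chr2:32387690-32387989 on the minus strand and that of Gfap at chr11:102897151-102897450 on the minus strand.
Serpina3n: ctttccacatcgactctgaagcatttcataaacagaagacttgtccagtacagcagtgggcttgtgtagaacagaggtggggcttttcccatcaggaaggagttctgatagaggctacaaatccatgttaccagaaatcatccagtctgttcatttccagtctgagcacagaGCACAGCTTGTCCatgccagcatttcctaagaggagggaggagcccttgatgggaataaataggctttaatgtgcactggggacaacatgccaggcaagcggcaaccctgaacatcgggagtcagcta
Lcn2: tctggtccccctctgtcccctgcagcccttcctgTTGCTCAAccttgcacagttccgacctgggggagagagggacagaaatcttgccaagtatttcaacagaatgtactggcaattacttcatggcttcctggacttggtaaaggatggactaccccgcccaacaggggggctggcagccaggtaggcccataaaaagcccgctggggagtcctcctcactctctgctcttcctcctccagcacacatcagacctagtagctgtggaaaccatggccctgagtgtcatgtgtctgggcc
Gfap: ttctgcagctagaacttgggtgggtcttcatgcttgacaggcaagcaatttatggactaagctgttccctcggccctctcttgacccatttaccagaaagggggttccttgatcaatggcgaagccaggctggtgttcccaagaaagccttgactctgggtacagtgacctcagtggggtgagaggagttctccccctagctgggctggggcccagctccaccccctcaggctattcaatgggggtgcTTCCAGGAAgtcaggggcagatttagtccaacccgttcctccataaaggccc
In Serpina3n the capitals are the glucocorticoid receptor motif, from −78 to −66 relative to the start. This motif was in 0.475% of the 32851 promoters of the same length. In Lcn2 they are the C/EBP motif, from −216 to −209, which 10.8% of all promoters held, and in Gfap the STAT motif, from −2 to 7, which 8.3% held. The STAT motif was also in Slc1a3 and the C/EBP motif also in Slc1a2 and Aldh1l1, while the windows of Gja1, S100b and Vim held none of these letters. The 3 motifs do not overlap in these windows. A match is a description of the sequence, and binding was not measured.

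Libraries held from 17.9 M to 25.5 M counts. All 10 genes were detected in every library, with at least 1034 counts for each identity gene, 616 for the filament genes and 4 for Lcn2. In a bulk punch, fewer cells of a type and less RNA per cell cannot be told apart. The PVT libraries differed in content: 12 thalamus genes summed to between 487 and 2028 CPM, the unit used below. In CPM a count is taken relative to the TMM-scaled total of its library, over genes past a filter on low counts. One PVT library, control 4, carried 11837 CPM of the pituitary hormone gene Gh. Among pIC libraries Gh was also highest in control 4, at 35.7 CPM, with STZ 2 next at 1.33 CPM. Striatal neuron genes summed to 434 to 1924 CPM in PVT control and 343 to 4313 CPM in PVT STZ libraries. Cortical excitatory neuron genes summed to 500 to 1921 CPM in PVT control and 844 to 1988 CPM in PVT STZ libraries.

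In pIC, Serpina3n rose in STZ mice and was the only 1 of the 10 genes that passed the test. Serpina3n encodes a secreted serine protease inhibitor that is raised in reactive astrocytes. It was at 13.7, 15.3, 12.2 and 13.8 CPM in pIC control libraries 1 to 4 and at 20.8, 18.6, 15.4, 22.6, 24.2 and 19.9 CPM in pIC STZ libraries 1 to 6. Every STZ library was above every control library, although STZ 3 exceeded the highest control by a narrow margin. The group means were 13.8 ± 1.25 CPM (SD, n = 4) and 20.2 ± 3.10 CPM (SD, n = 6). The fold change was 1.46 (95% interval 1.24 to 1.73), or 0.55 on the log2 scale (SE 0.112), with a Benjamini-Hochberg adjusted p of 0.0261 over all genes in edgeR. A two-sided exact permutation test over the libraries gave p = 0.00952. Across all genes tested in pIC, 1.4% were called in either direction, 0.432% were called higher, and in 4.44% the groups did not overlap. The call was lost without control replicate 1, 3 or 4 or STZ replicate 1 or 4 (adjusted p 0.0974, 0.093, 0.0985, 0.0601 and 0.0668), and in a fit of all 20 libraries (0.258).

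Striatal genes, which mark tissue next to the insula, summed to 501 to 1669 CPM in pIC control and 501 to 4280 CPM in pIC STZ libraries. All 10 had positive fold changes and 0 passed the test. With their score as a covariate the log2 fold change of Serpina3n was 0.59 (adjusted p = 0.00217, edgeR), and with the myelin score it was 0.48 (adjusted p = 0.0115). Of 7 other genes of the Serpina3 cluster, 6 were too low to be tested in pIC. The exception, Serpina3k, had a log2 fold change of −1.72 (adjusted p = 0.527). Counts of this cluster depend on how reads matching several of its genes were assigned, a step that the sources used here do not describe.

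In PVT, Serpina3n did not pass the test. It was at 27.0, 20.9, 30.8 and 21.8 CPM in PVT control libraries 1 to 4 and at 14.95, 18.7, 24.1, 32.2, 32.5 and 32.0 CPM in PVT STZ libraries 1 to 6. The STZ libraries fell both below and above the control range, with 1 to 3 low or intermediate and 4 to 6 high. Its log2 fold change was 0.04 (95% interval −0.47 to 0.55, adjusted p = 0.948, edgeR). A rise of the size measured in pIC lies just within that interval. The effect in PVT minus that in pIC was −0.52 on the log2 scale (95% interval −1.09 to 0.05), with an adjusted p of 1.00 for the interaction in edgeR.

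Lcn2, which encodes the secreted iron-siderophore carrier lipocalin-2, had the widest spread of the 10 genes. In pIC it was at 0.179, 0.6252, 2.75 and 0.369 CPM in control libraries 1 to 4 and at 22.0, 15.6, 15.9, 6.13, 0.511 and 11.8 CPM in STZ libraries 1 to 6. In this region 5 of 6 STZ libraries exceeded every control, and STZ 5 lay within the control range. The means were 0.981 ± 1.19 CPM (SD, n = 4) and 11.97 ± 7.66 CPM (SD, n = 6). The log2 fold change was 3.62 (SE 1.04, 12.3-fold with a 95% interval of 2.38 to 63.8) and did not pass the test in edgeR (adjusted p = 0.182). The exact permutation p was 0.0238. Without pIC control replicate 3, the highest control, the log2 value was 4.93 (adjusted p = 0.17). DESeq2 called it (adjusted p = 0.0076), and edgeR called it without pIC STZ replicate 5 (adjusted p = 0.0441).

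In PVT, Lcn2 was at 0.358, 0.651, 2.23 and 3.46 CPM in control libraries 1 to 4 and at 15.5, 13.9, 15.4, 3.70, 0.326 and 10.3 CPM in STZ libraries 1 to 6. Again 5 of 6 STZ libraries exceeded every control, STZ 4 narrowly, and STZ 5 was below all of them. The means were 1.67 ± 1.45 CPM (SD, n = 4) and 9.84 ± 6.44 CPM (SD, n = 6), and the log2 fold change of 2.51 (SE 0.899, 95% interval 0.51 to 4.52) did not pass the test (adjusted p = 0.187, edgeR). The exact permutation p in PVT was 0.124. Among the alternatives to the edgeR fit, the adjusted p of Lcn2 ran from 0.0631 to 1.00. Its log2 fold change was 1.21 (adjusted p = 0.673) with the 4 PVT libraries poorest in thalamus genes left out. That choice was made after seeing the data and leaves 3 control and 3 STZ libraries.

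The 6 STZ libraries took the same order for Lcn2 in both regions. Over STZ numbers 1 to 6, Pearson's r between the PVT and the pIC value was 0.994 (exact permutation p = 0.00139, 0.0139 adjusted over the 10 genes) and Spearman's rho was 1 (exact permutation p = 0.00278, adjusted 0.0278), each the smallest p that its test can give with 6 pairs. Without the 2 libraries farthest from the median in PVT, r was 0.85. STZ 5 was the lowest in both regions and STZ 1 the highest. For the other 9 genes the adjusted p of Pearson's r was 0.458 or more. The share of all genes that take the same order in both regions was not counted, so the agreement cannot be called particular to Lcn2. Control numbers 1 to 3 were between 0.179 and 2.75 CPM in both regions, whereas control 4 was at 3.46 CPM in PVT and 0.369 CPM in pIC.

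**Figure D1:**
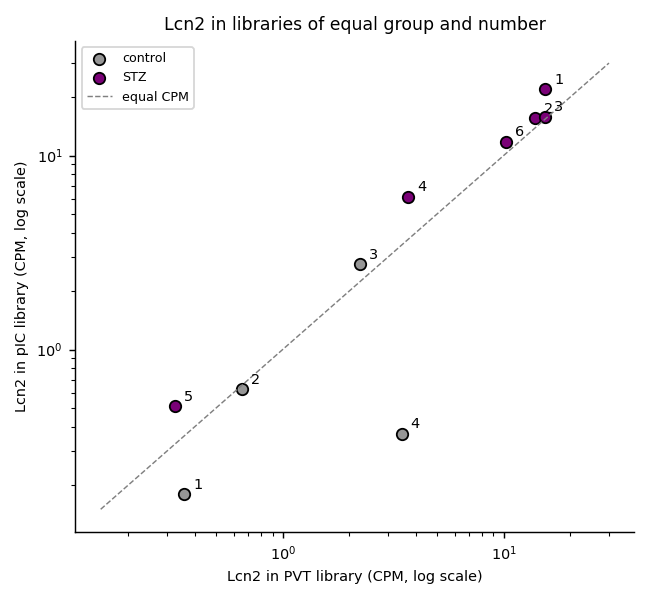
Lcn2 in CPM in the PVT library (horizontal, log scale) and the pIC library (vertical, log scale) of the same group and number; each point is 1 number, grey for control and purple for STZ, and the dashed line marks equal CPM. STZ 5 sits at 0.326 and 0.511 CPM among the control points, and the other 5 STZ points lie at 3.70 CPM or more in PVT and 6.13 CPM or more in pIC.

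Neutrophils and endothelium also make Lcn2. Of 10 neutrophil genes, 9 or 10 were under 1 CPM in each of the 4 groups, and their sum was 1.33 to 2.95 CPM in PVT control, 1.505 to 5.54 CPM in PVT STZ, 1.42 to 2.06 CPM in pIC control and 1.61 to 2.68 CPM in pIC STZ libraries. The neutrophil surface gene Ly6g had no count in 3 of the 4 groups and 1 count in pIC control. The 10 endothelial genes summed to 384 to 418 CPM in PVT control and 447 to 519 CPM in PVT STZ libraries, without overlap. The mean of their log2 CPM did overlap, at 4.86 to 4.92 in PVT control and 4.78 to 5.10 in PVT STZ libraries. Their fold changes in PVT were positive in 6 and negative in 4, with a median of 0.07 on the log2 scale. In that region 1 of these 10 passed the test, the glucose transporter gene Slc2a1 with a log2 fold change of 0.45. In pIC they summed to 434 to 458 CPM in control and 438 to 499 CPM in STZ libraries, and 1 of 10 passed, the angiopoietin receptor gene Tek at −0.55. The part of endothelium in the Lcn2 values was not tested.

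**Figure D2:**
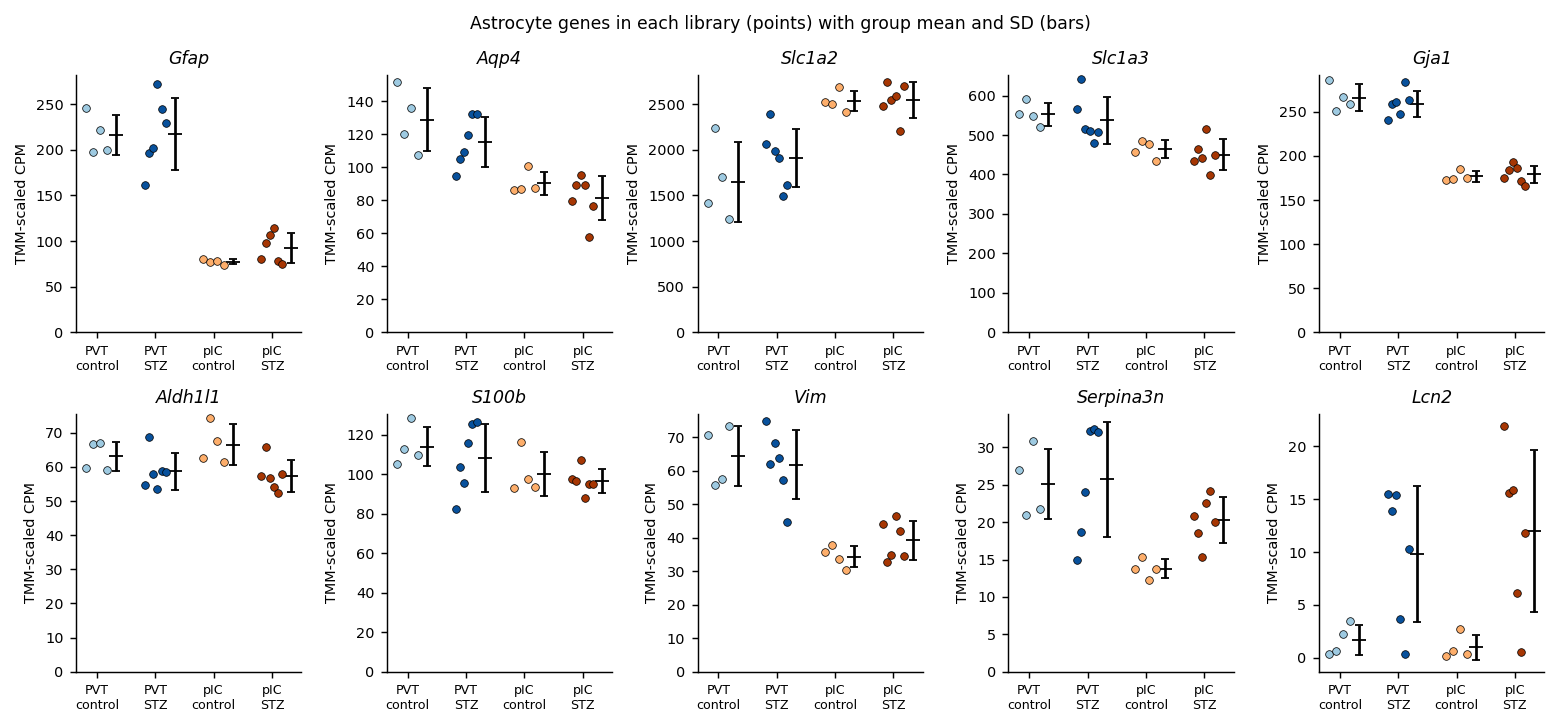
CPM of each of the 10 genes (vertical, 1 panel a gene) in the 4 groups (horizontal); points are libraries, and the bar beside them is the mean with its SD. Lcn2 spreads from 0.511 to 22.0 CPM over the pIC STZ libraries, while Slc1a2 stays between 2206 and 2748 CPM there.

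None of the 6 identity genes passed the test for STZ in either region. In PVT, 0 of all 10 genes passed in edgeR, DESeq2 or limma-voom, where 2.07% of all genes tested were called in edgeR, and Lcn2 was the 1 gene with an unadjusted p under 0.05. In 0 of the 10 did the PVT groups not overlap, beside 6.14% of all genes. The median log2 fold change of the 10 was −0.03 in PVT and 0.0072 in pIC, beside 0.0038 and −0.00063 over all genes tested. Apart from Lcn2, values lay between −0.15 and 0.22 in PVT, and apart from Lcn2 and Serpina3n between −0.22 and 0.25 in pIC. How closely the change was bounded differed by gene, with wider PVT intervals for Slc1a2, Gfap and Vim given below. The 95% interval for Gja1, the gap junction protein connexin 43, was −0.17 to 0.11 in PVT and −0.10 to 0.13 in pIC, and that for Slc1a3, the glutamate transporter GLAST, was −0.21 to 0.14 and −0.19 to 0.09.

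Slc1a2, the main glutamate transporter GLT-1, was at 2533 ± 111 CPM in pIC control and 2546 ± 193 CPM in pIC STZ libraries, a log2 fold change of 0.0008 (95% interval −0.13 to 0.14). Its PVT interval was wider, −0.15 to 0.59 around 0.22. Aqp4, the water channel of endfeet, was at 90.3 ± 7.09 CPM in pIC control and 81.3 ± 13.3 CPM in pIC STZ libraries, the lowest of which, STZ 5, was at 58.0 CPM. Its log2 fold change was −0.16 in pIC (95% interval −0.42 to 0.10) and −0.15 in PVT (−0.41 to 0.11). S100b, a calcium-binding protein, had intervals of −0.21 to 0.09 in pIC and −0.32 to 0.19 in PVT.

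Aldh1l1, a folate enzyme used as a pan-astrocyte marker, was at 62.6, 74.4, 67.6 and 61.4 CPM in pIC control libraries 1 to 4 and at 57.2, 65.9, 56.7, 54.0, 52.4 and 57.8 CPM in pIC STZ libraries 1 to 6. Only STZ 2 reached into the control range. The log2 fold change of −0.22 (95% interval −0.37 to −0.07) did not pass adjustment in edgeR (adjusted p = 0.193), and the exact permutation p was 0.0286. In PVT the log2 fold change was −0.10 (−0.26 to 0.07).

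The intermediate filament genes did not pass the test for STZ. Gfap, the filament protein by which astrocytes are usually stained, was at 73.6 to 80.3 CPM in the 4 pIC control libraries and at 80.3, 98.3, 107, 114, 78.2 and 75.002 CPM in pIC STZ libraries 1 to 6. STZ 2, 3 and 4 were above every control, STZ 1 was level with the highest control, and STZ 5 and 6 lay within the control range. Its log2 fold change was 0.25 (95% interval −0.01 to 0.50, adjusted p = 0.448, edgeR). In PVT, Gfap was at 197.9 to 245.6 CPM in control and 161.2 to 272.6 CPM in STZ libraries, a log2 fold change of 0.02 (−0.27 to 0.30). Vim, vimentin, had log2 fold changes of 0.19 in pIC (−0.04 to 0.41) and −0.05 in PVT (−0.35 to 0.25).

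**Figure D3:**
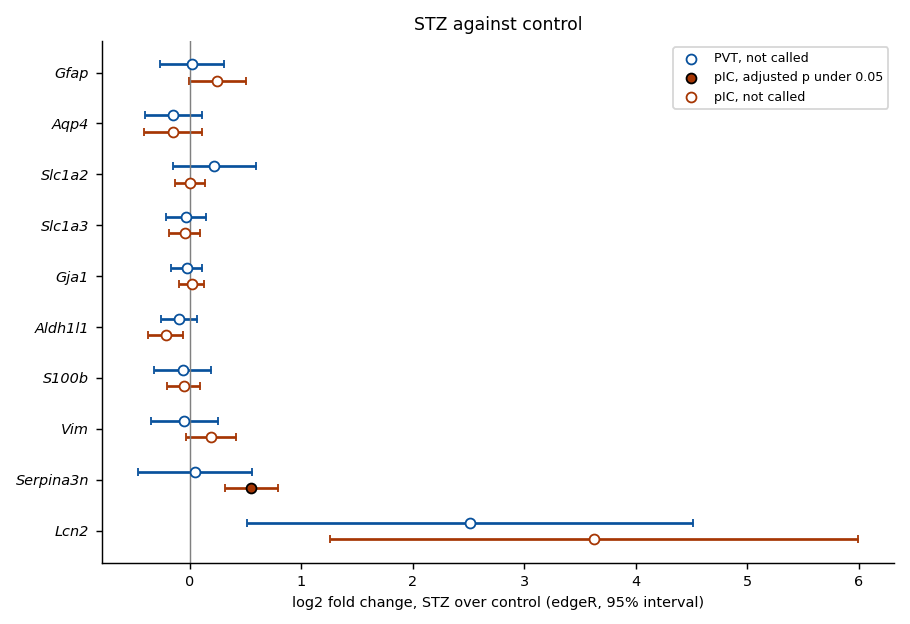
The log2 fold change of STZ over control for each gene (horizontal axis) in PVT (blue) and pIC (brown), with bars for the 95% interval in edgeR; a filled point passed an adjusted p of 0.05. Serpina3n in pIC at 0.55 is the 1 filled point, and the Lcn2 points at 2.51 and 3.62 have the widest bars.

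The STZ effects of the 2 regions were compared by the interaction of region and treatment. Of the 10 genes, 0 passed in edgeR, DESeq2 or limma-voom and 0 had an unadjusted p under 0.05 in edgeR, where 0% of the 17427 genes tested were called. Beside Serpina3n, given above, the estimates were −1.13 for Lcn2 (95% interval −4.00 to 1.75), −0.24 for Gfap (−0.63 to 0.15) and −0.25 for Vim (−0.63 to 0.13) on the log2 scale. The other 6 lay between −0.06 and 0.20.

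More of the 10 genes were called between the regions than between treatments. In control mice, Gfap, Vim, Serpina3n, Gja1, Aqp4 and Slc1a3 were higher in PVT than in pIC and Slc1a2 was lower. That is 7 of 10, and in the same 7 genes the libraries of the regions did not overlap. Among all genes 47.8% were called (25.5% higher, 22.4% lower) and 45.3% did not overlap, so calls between regions were common. The median log2 difference of the 10 was 0.55, beside 0.02 over all genes tested.

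Gfap was at 245.6, 197.9, 222.2 and 199.9 CPM in PVT control libraries 1 to 4 and at 80.3, 77.6, 78.3 and 73.6 CPM in pIC control libraries 1 to 4. The lowest PVT library was more than 2 times the highest pIC library. The difference was 2.79-fold (95% interval 2.46 to 3.17, adjusted p = 8.1e-07, edgeR), and Gfap was the 1 gene of the 10 that also passed a test against a 2-fold difference (glmTreat). Vim was 1.87-fold higher (64.3 ± 9.02 against 34.3 ± 3.12 CPM) and Serpina3n 1.83-fold (25.1 ± 4.65 against 13.8 ± 1.25 CPM).

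Among the identity genes, Gja1 was 1.505-fold higher in PVT of control mice (266 ± 15.03 against 176.7 ± 5.75 CPM), Aqp4 1.43-fold (129 ± 19.2 against 90.3 ± 7.09 CPM) and Slc1a3 1.19-fold (553 ± 29.3 against 464 ± 22.8 CPM). The Slc1a3 call was lost without PVT control replicate 2 (adjusted p = 0.0519) or pIC control replicate 4 (0.0568). The other glutamate transporter ran the opposite way. Slc1a2 was at 1420, 2238, 1707 and 1237 CPM in PVT control libraries 1 to 4 and at 2526, 2504, 2685 and 2418 CPM in pIC control libraries 1 to 4, all of them above the PVT libraries. Its log2 difference was −0.62 (SE 0.155, adjusted p = 0.00726, edgeR). Aldh1l1 (−0.08, 95% interval −0.25 to 0.10), S100b (0.19, −0.02 to 0.39) and Lcn2 (0.83, −1.33 to 2.99) did not pass. S100b passed with upper quartile scaling (adjusted p = 0.0388), limma-voom (0.0314) or without pIC control replicate 2 (0.0245).

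In STZ mice, 5 of the 10 were higher in PVT and Slc1a2 was lower, where 49.1% of all genes were called (26% higher, 23.1% lower). Gfap was 2.37-fold higher (218 ± 39.3 against 92.1 ± 16.5 CPM, adjusted p = 2.0e-05, edgeR), and its lowest PVT library, at 161.2 CPM, was above its highest pIC library, at 114.0 CPM. Gja1 was the other gene without overlap, 2 of 10 beside 27.8% of all genes. Serpina3n, higher in PVT of control mice, had a log2 difference of 0.35 in STZ mice (95% interval −0.06 to 0.77, adjusted p = 0.145) and passed without PVT STZ replicate 1 (0.0263). The comparisons in control and in STZ mice rest on different libraries, and their difference is the interaction given above.

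**Figure D4:**
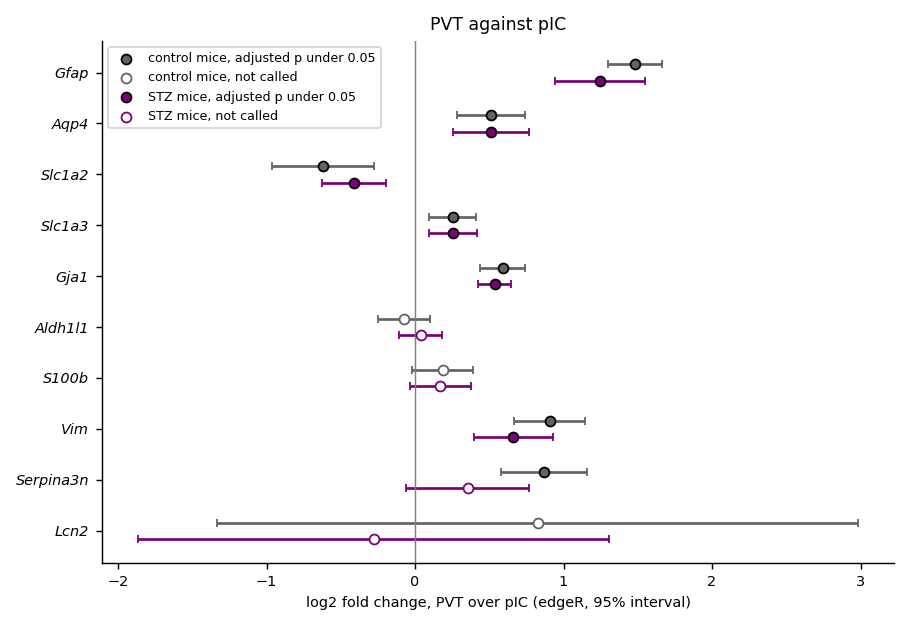
The log2 fold change of PVT over pIC for each gene (horizontal axis) in control mice (grey) and STZ mice (purple), with bars for the 95% interval in edgeR; filled points passed an adjusted p of 0.05. Gfap lies farthest right, at 1.48 and 1.25, and Slc1a2 is the gene with filled points left of 0, at −0.62 and −0.41.

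Several other cell types differed between the punches of the regions. In control mice, 16 of 16 ependymal, 12 of 12 choroid plexus and 12 of 12 oligodendrocyte genes were higher in PVT, with median log2 differences of 3.97, 6.77 and 1.19, and 8 of 10 pan-neuronal genes were lower. Foxj1, the master factor of motile cilia in ependyma, was at 35.7 ± 5.56 CPM in PVT control and 3.65 ± 1.00 CPM in pIC control libraries. Ependymal cells also express Gfap, Vim, Aqp4 and S100b, and the part of these cells in the regional differences was not tested. Of 5 genes that mark astrocytes outside the cortex, 5 were higher in PVT, with a median log2 difference of 2.35. They were the angiotensin precursor Agt (4.42), Itih3 (2.51), the matrix protein Sparc (2.35), the GABA transporter Slc6a11 (1.59) and the glycine transporter Slc6a9 (1.05). Of 3 genes that mark astrocytes of the telencephalon, which includes the cortex, 2 were lower in PVT and 0 higher, with a median of −0.55. Of 30 further astrocyte identity genes 14 were higher in PVT and 0 lower, beside 25.5% higher and 22.4% lower among all genes tested.

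The 10 genes were set beside the thalamus genes of the PVT libraries, in a split made after the data were seen and not tested. The 4 PVT libraries lowest in thalamus genes were STZ 1, control 2, STZ 3 and STZ 2, at 487 to 564 CPM beside 671 to 2028 CPM in the other 6. Of these, 3 were STZ libraries. The 4 held 3 of the 4 lowest values of Serpina3n, Gfap, Aqp4, Gja1 and S100b, 2 of the 4 lowest of Aldh1l1 and 1 each of Slc1a3, Vim and Lcn2. Slc1a2 ran the other way: it was at 1985 to 2390 CPM in these 4 and 1237 to 1907 CPM in the other 6. The highest PVT values of Lcn2 also lay in these 4, at 15.5, 15.4 and 13.9 CPM in STZ 1, 3 and 2, with control 2 at 0.651 CPM. So did the highest of Slc1a3, at 641, 591 and 566 CPM in STZ 2, control 2 and STZ 1, with STZ 3 at 515 CPM. The share of all genes that separate in this split was not counted. Serpina3n was at 14.95 to 24.1 CPM in these 4 and 21.8 to 32.5 CPM in the other 6. The part of punch content in these values was not tested.

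**Figure D5:**
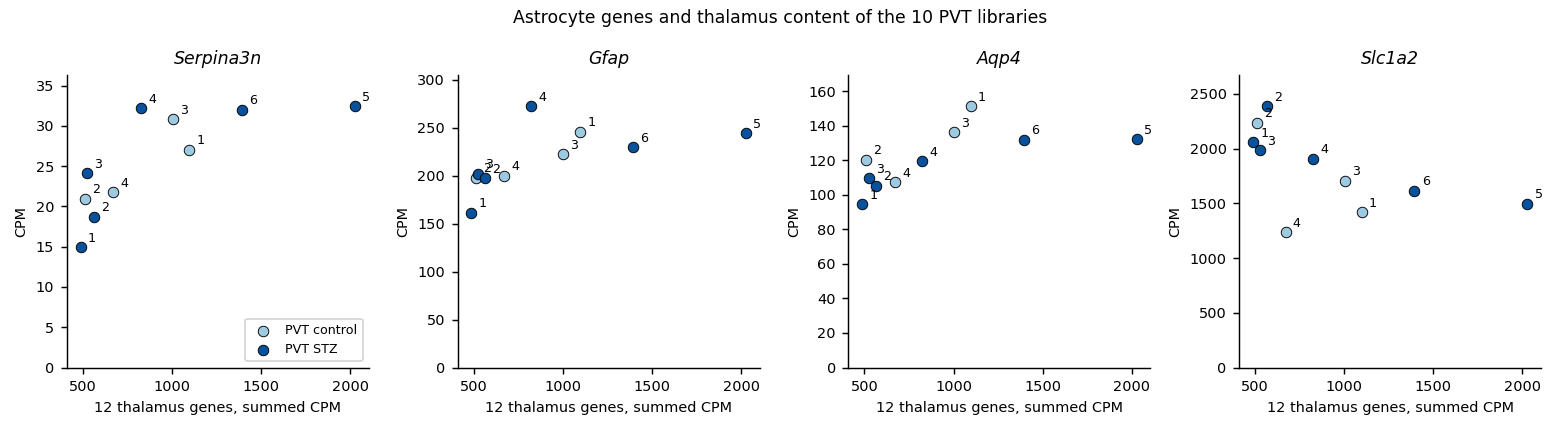
Serpina3n, Gfap, Aqp4 and Slc1a2 in CPM (vertical) against the summed CPM of 12 thalamus genes (horizontal) in the 10 PVT libraries, with light points for control, dark points for STZ and the library number beside each. Slc1a2 lies at 1985 CPM or more in the 4 libraries at the left and at 1907 CPM or less in the other 6.

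Without those 4 libraries, leaving 3 against 3, the STZ effect in PVT was 0.29 for Serpina3n, 0.17 for Gfap, −0.03 for Aqp4 and 0.21 for Slc1a2 on the log2 scale, and 0 of the 10 genes passed in edgeR. Ependymal genes moved with STZ in PVT: 12 of 16 fell, and they summed to 164 to 219 CPM in control and 101 to 140 CPM in STZ libraries. Of 12 myelin genes 3 fell there too, among them Mog (98.9 ± 6.17 to 68.7 ± 7.23 CPM). In pIC, 0 genes of either list passed. With the ependymal score as a covariate the log2 effect of STZ in PVT was 0.50 for Serpina3n, 0.01 for Aqp4 and −0.33 for Slc1a2, with an adjusted p of 1.00 for each. In that fit 3 of 17076 genes were called. The score, the mean log2 CPM of the ependymal genes, was 3.05 to 3.48 in PVT control and 2.30 to 2.79 in PVT STZ libraries. Because the groups did not overlap in it, the fit cannot tell the score from STZ.

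Other genes listed for astrocytes moved in small numbers, and the lists below were chosen with earlier results of these libraries known. A bulk punch does not show which cells made these transcripts, so a call is not assigned to astrocytes. Of 30 further identity genes, 2 rose in PVT. They were Glul, glutamine synthetase, from 1745 ± 125 to 2182 ± 121 CPM (log2 fold change 0.33, adjusted p = 0.0277), and Cbs, the hydrogen sulfide enzyme cystathionine beta-synthase (0.36, adjusted p = 0.0277). In pIC, Cbs (0.45, adjusted p = 0.0044) and the connexin 30 gene Gjb6 (0.28, adjusted p = 0.0273) rose and the sphingosine phosphate receptor gene S1pr1 fell by 0.47 (adjusted p = 0.00149). The median over the 30 was −0.04 in both regions. Of 16 genes of glutamate, GABA and potassium handling, Glul rose in PVT and Slc38a3, a glutamine exporter, fell by 0.47 (adjusted p = 0.0199), and Gjb6 rose in pIC. None of 12 endfoot genes in PVT and 11 in pIC passed (adjusted p from 0.0566 upward in PVT and 0.357 upward in pIC, the lowest for the cation channel gene Trpv4). The calls of Cbs, Glul, S1pr3 and Cxcl10 in PVT and Gjb6 in pIC were each lost when any of several single libraries was left out.

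Reactive astrocyte genes did not rise together. Of 9 pan-reactive genes beyond the members, 8 were tested in PVT, where Cxcl10, a chemokine, and S1pr3 fell by 2.60 and 0.47 (adjusted p = 0.0277 and 0.0281) and 0 rose; in pIC 0 of 8 passed. The 8 tested genes had 3 positive and 5 negative log2 fold changes in PVT (median −0.10), and 5 positive and 3 negative in pIC (median 0.25). Osmr, the oncostatin M receptor, and ceruloplasmin (Cp), picked after their values were seen, were positive in both regions. They were at 0.65 and 0.31 in PVT and 0.47 and 0.48 in pIC, without passing adjustment (adjusted p 0.126 to 0.375). Of 12 genes raised in astrocytes after lipopolysaccharide, 4 fell and 1 rose in PVT (median −0.56), and of 11 tested in pIC 3 fell and 1 rose (median −0.20). Those that fell are interferon-responsive, antigen-presentation or complement genes: Psmb8 (−1.29 in PVT, −1.19 in pIC), H2-D1 (−0.90 and −0.79), Gbp2 in pIC (−1.12), and Iigp1 (−2.15) and C3 (−1.03) in PVT. H2-D1 has close relatives, and its counts depend on how shared reads were assigned. The riser in both regions was Fkbp5, a glucocorticoid-induced chaperone partner, from 49.0 ± 1.99 to 85.3 ± 17.9 CPM in PVT (0.81, adjusted p = 0.0223) and from 46.4 ± 3.89 to 89.3 ± 15.3 CPM in pIC (0.94, adjusted p = 0.00218).

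Of 12 genes raised in astrocytes after ischaemia, the lipopolysaccharide co-receptor gene Cd14 rose in pIC (0.96, adjusted p = 0.00653), the 1 of 8 tested there that passed, and 0 of 9 passed in PVT. Among 9 further intermediate filament genes, Nes, the gene of nestin, fell in pIC from 16.6 ± 2.35 to 10.5 ± 0.779 CPM (−0.67, adjusted p = 0.00218), and 0 passed in PVT. Of 23 genes that signal to reactive astrocyte genes, Nfkbia, the inhibitor of NF-kB, rose in PVT (0.92, adjusted p = 0.00729) and pIC (0.83, adjusted p = 0.00108). Cebpd, the C/EBP delta gene, rose in pIC from 3.50 ± 0.740 to 7.02 ± 1.26 CPM (0.99, adjusted p = 0.00657), and in PVT its log2 fold change was 0.34 (adjusted p = 0.362). Stat3 was at 0.08 in PVT and 0.14 in pIC, and the glucocorticoid receptor gene Nr3c1 at −0.05 and −0.16, without passing. With the 4 PVT libraries poorest in thalamus genes left out, Psmb8 alone of the 11 genes named in these lists kept its call, in a fit of 3 against 3. With the choroid plexus score as a covariate Psmb8 and H2-D1 did. With the ependymal score none of the 11 did (3 of 17076 genes called), but that score did not overlap between the PVT groups and cannot be told from STZ there. All kept their direction: the log2 effect was −1.35 for Psmb8, −0.97 for H2-D1, 0.90 for Fkbp5, 0.73 for Nfkbia, 0.49 for Cbs, 0.19 for Glul, −0.62 for Slc38a3, −0.41 for S1pr3, −0.56 for C3, −3.15 for Iigp1 and −4.18 for Cxcl10.

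Within groups, the members fell into more than 1 pattern. After group means were taken away, Pearson's r over the 20 libraries was 0.76 for Gfap with Aqp4, 0.76 for Aqp4 with Gja1 and 0.67 for Gfap with Gja1. The glutamate transporters Slc1a2 and Slc1a3 went together at 0.72 and ran at −0.22 and −0.02 with Gfap. Serpina3n was at 0.61 with S100b and −0.52 with Lcn2, the other secreted product. The genes most like Serpina3n among 14755 ranked were Smoc2 (0.911), Slc5a5 (0.907) and Rogdi (0.905). These correlations share the content of the punches and are given as descriptions.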

How the data were processed

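The authors deposited a table of raw counts, with 57180 Ensembl identifiers and 20 libraries of PVT and pIC punches. GRCm39 (mm39) is named in the submitters' processing notes, and the aligner, counting program, strand setting and annotation were not given in the sources used here. Symbols were matched for 51884 identifiers. Each comparison was fitted on all genes in edgeR 4.0.16 (R 4.3.3) by its quasi-likelihood test with robust dispersions after filterByExpr (10 counts, total of 15) and TMM scaling, and Benjamini-Hochberg adjusted p under 0.05 was called. Raw totals were 17.9 M to 25.5 M. CPM use the TMM-scaled totals of the genes that filterByExpr kept over all 20 libraries, and log2 CPM a prior count of 2. Intervals are at 95%. Single values were also tested by exact permutation. Members, lists and tests were chosen with earlier results of these data known. Named genes were the 10 members, up to 3 higher and 3 lower called genes of each of 27 other lists, or the gene of smallest p where none was called, and 3 genes most like each member called; Nr3c1, Stat3, Osmr and Cp, and values of list genes between regions, were named after their values were seen. Alternatives were RLE and upper quartile scaling, no filter, DESeq2 1.42.0, limma-voom (limma 3.58.1), glmTreat, marker scores as covariates, a replicate block, all libraries in 1 fit and leaving libraries out. The methods were tested on simulated data. No 2 libraries of a group were duplicates (lowest chi-square per degree of freedom 4.00).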

Additional observations from a re-analysis of the deposited data

Results flagged for a closer look

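Of 40 sets of 4 or 6 libraries (10 genes in 4 groups), 3 had a highest library set apart from the others by more than the 95% critical value of Dixon's ratio, and chance gives about 1 in 20. Aqp4 was at 100.9 CPM in pIC control 3, with the nearest control at 87.1 CPM. In the same library Gja1 was at 185.2 CPM, with the nearest control at 174.7 CPM. Aldh1l1 was at 68.74 CPM in PVT STZ 2, with the nearest STZ library at 58.8 CPM.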

How the results depend on the processing

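The number of members called for STZ in PVT and for the interaction was 0 under every alternative run. For STZ in pIC it was 1, with 2 members called in DESeq2, 0 in the fit of all 20 libraries and 0 to 2 when single libraries were left out. Between regions it was 7 in control and 6 in STZ mice, with 1 and 0 members called by glmTreat against a 2-fold difference. Whether equal numbers pair the libraries is not known: over all genes, same-numbered PVT and pIC libraries correlated at −0.12 to 0.27, 5 of 10 pairs were over 0.1 and 5 of 10 did best with their own number, and the labels give no shared mouse. In the STZ fits of each region the replicate block joined control and STZ libraries of equal number, which come from different mice. In the interaction and regional fits it joined PVT and pIC libraries of equal group and number. With the replicate block the counts of members called were 0 in PVT, 1 in pIC, 0 for the interaction and 7 in each regional comparison, where Lcn2 (−0.32, adjusted p = 0.0307) was added in STZ mice.

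Changes of sign occurred in values that were not called, the largest from 0.22 to −0.328 for Slc1a2 in PVT. In PVT, the log2 effect of STZ on Gfap was −0.0384 with upper quartile scaling, −0.0697 with the replicate block and −0.00492 with the thalamus score as covariate. That on Serpina3n was −0.0103, −0.191 and −0.0187 under the same settings and −0.00489 in limma-voom. Vim was at 0.0757 with the block, 0.0851 with the ependymal and 0.0379 with the choroid plexus score. Slc1a3 was at 0.0145 with the block, Aqp4 at 0.0105 and Slc1a2 at −0.328 with the ependymal score, and S100b at 0.105 with the 4 libraries poorest in thalamus genes left out, an alternative chosen after seeing the data. In pIC, upper quartile scaling and the striatal score gave −0.0161 and −0.0135 for Slc1a2 and −0.00366 and −0.00256 for Gja1. For the interaction, Slc1a3 was at −0.0191, −0.0499 and −0.00199 with upper quartile scaling, limma-voom and the block, and Aqp4 at 0.00935 and 0.00758 without a filter and with the block. Aldh1l1 between regions in STZ mice was at −0.00622 in limma-voom. Leaving out single libraries gave −0.0541 to 0.0889 for Gfap, −0.0366 to 0.159 for Serpina3n, −0.116 to 0.0284 for Vim and −0.05996 to 0.01 for Gja1 in PVT. It gave −0.0254 to 0.0403 for Slc1a2, −0.09403 to 0.02635 for S100b and −0.0102 to 0.0384 for Gja1 in pIC. It gave −0.0854 to 0.0806 for Aqp4, −0.0568 to 0.0534 for Slc1a3 and −0.0898 to 0.0539 for S100b in the interaction, and −0.02075 to 0.0824 for Aldh1l1 between regions in STZ mice. The cause was not tested. Of 1460 single-gene values under alternatives, 1281 kept direction and call, 99 lost a call, 8 gained one and 72 changed sign. The 3 values with an exact permutation p under 0.05, of 20, were 3 under both other scalings. Lcn2 rests on as few as 4 counts in a library, which limits the precision of its low values.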

Other observations

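The relatives and partners of the members gave few calls for STZ (edgeR, Benjamini-Hochberg adjusted p). Of 2 cell surface receptors for lipocalin-2, Slc22a17 was at 660 ± 50.9 CPM in PVT control and 606 ± 47.4 CPM in PVT STZ libraries (log2 fold change −0.12, adjusted p = 0.463), and in pIC its log2 fold change was −0.05 (adjusted p = 0.798). The other, Lrp2 or megalin, was at 2.43 ± 0.269 CPM in PVT control and 1.35 ± 0.405 CPM in PVT STZ libraries. These did not overlap, and the log2 fold change of −0.84 did not pass (adjusted p = 0.0809). Of 8 S100 genes beside S100b tested in PVT and 7 in pIC, 0 passed, the closest being S100a16 at −0.30 (adjusted p = 0.137) and −0.33 (adjusted p = 0.147).

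Microglia, which release cytokines that act on astrocytes, had marker sums that overlapped between treatments. Their 10 genes summed to 312 to 367 CPM in PVT control and 308 to 337 CPM in PVT STZ libraries, and to 324 to 359 CPM in pIC control and 317 to 363 CPM in pIC STZ libraries. Aif1, the gene of the stain Iba1, fell in PVT from 4.56 ± 0.645 to 2.80 ± 0.491 CPM (log2 fold change −0.69, adjusted p = 0.0436), and its log2 fold change in pIC was −0.51 (adjusted p = 0.179). Of 9 fibroblast and meningeal genes, the matrix proteoglycan genes Lum (−0.77, adjusted p = 0.0218) and Dcn (−0.60, adjusted p = 0.0295) fell in PVT and 0 passed in pIC. Among tanycyte, oligodendrocyte precursor and mural cell genes 0 passed in either region.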
